A study of Brassica napus with 17 samples.

Results

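Only 2 of the 68491 genes with a deposited log2 CPM value (counts per 1000000 on the log2 scale), BnaA09g22540D and BnaC06g24550D, were near silent in fresh microspores and in heat-only cultures but high in heat-treated cultures with trichostatin A (TSA) from day 2 through day 8. They were chosen by their levels: the group mean had to be at least 4 log2 CPM with TSA at days 2, 4 and 8, and at most 0 at day 0 and in heat-only cultures of days 2 and 4. The rule therefore fixes the difference between TSA and the other groups, which is given here as a description with no test. It does not fix the direction in which the genes changed from one TSA time to the next, and those changes were tested. Both heat-only levels are capped by the rule, and in a fit of those 2 groups alone neither gene passed the filter on low counts. The heat-only change is therefore given as a description, with its test values.

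The RNA came from cultures of late unicellular microspores of a doubled haploid line of Brassica napus (oilseed rape), DH12075, and all groups carried a LEC1-GFP reporter. Cultures named HS+TSA received TSA together with 24 hours at 33 °C, were then washed free of it, and stayed at 25 °C for 1, 3 or 7 days, which gave 3 libraries of day 2, 3 of day 4 and 2 of day 8. The labels put TSA at 0.5 µM for day 2 and at 0.05 µM for day 8, and contradict each other for day 4, with 0.5 µM in the titles and 0.05 µM in the treatment field. The other groups were untreated microspores at day 0 and cultures given the same heat without TSA (HS) at days 2 and 4, with 3 libraries each. No heat-only culture of day 8 and no unheated culture is among the samples, so at day 8 the effects of TSA and of culture time cannot be told apart. The labels give the cultures as mixed microspores and embryogenic cells from a single line, and in such bulk RNA more cells of a type and more RNA per cell cannot be told apart.

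Histone deacetylases remove acetyl groups from histone tails, and acetylated histones go with accessible, transcribed chromatin. TSA blocks these enzymes and so raises histone acetylation. Heat stress turns part of a microspore culture from pollen development to embryo growth, and per the labels heat with TSA was used to obtain callus. LEC1, which drives the reporter, encodes a transcription factor subunit of embryo development.

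Neither gene has a name or function in the sources used here. The reference gene table (RefSeq, assembly Da-Ae) listed 3347 of the 101040 gene IDs as symbols, and 0 of the 2 members were found in it. Their IDs carry the codes A09 and C06, which in B. napus mark a chromosome of the A and of the C subgenome. Marker genes of pollen, embryo or stress could not be read, because the deposited files give IDs alone and the symbols matched in the table are those IDs. B. napus holds near-identical copies of many genes in both subgenomes, and how shared reads were counted is not given in the sources used here, so each level may include reads of a copy.

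Total counts per library ran between 2716279 and 31407037. Day 0 replicate 3 had the fewest, and there 3 counts already stand for 0.787 CPM, while in the other libraries they stand for 0.0809 to 0.529 CPM. A level under these values is below what the library resolves. CPM values below use library sizes scaled with TMM, and their errors cover counting and the spread between replicates. CPM is not divided by gene length, so levels are compared within a gene and not between the 2 genes.

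The limits of the rule were met together by very few genes. Means of at least 4 log2 CPM in all 3 TSA groups were found for 7458 genes. Of these, 369 were at 0 or less at day 0, 86 in HS day 2 and 12 in HS day 4. The limit in HS day 4 thus left the fewest genes, and both members lay close to it, with HS day 4 means of -0.03 (BnaA09g22540D) and -0.29 log2 CPM (BnaC06g24550D). This limit is sensitive to scaling. TMM factors were 0.4395 to 0.6062 in HS day 4 and 1.115 to 1.405 in the TSA and day 0 libraries, and a low factor raises the scaled level. Log2 CPM recomputed with these factors gave the same 2 members, and no other scaling was tried for membership. With a maximum of 1 elsewhere 20 genes met the rule. On the TSA side their lowest group means were 4.36 log2 CPM for BnaA09g22540D at day 2 and 4.5 for BnaC06g24550D at day 4. Just outside the TSA limit lay BnaC07g31650D and BnaAnng37270D, with lowest TSA means of 3.92 log2 CPM each. Just outside the other limit lay BnaAnng02530D, at 0.23 log2 CPM at day 0, and BnaC06g35410D, at 0.26 log2 CPM in HS day 4.

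**Figure D1:**
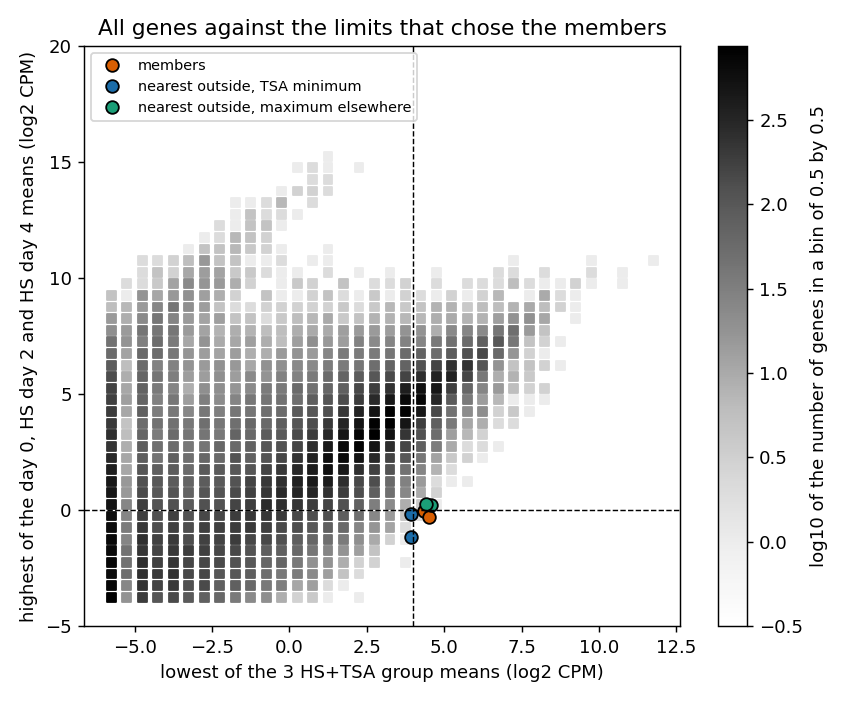
Each square counts the genes in a bin of 0.5 by 0.5 log2 CPM, with the lowest of the 3 HS+TSA group means across and the highest of the day 0, HS day 2 and HS day 4 means upward; dashed lines mark the limits of 4 and 0. The 2 members stand alone in the lower right field, and the nearest genes outside lie within 0.26 of a limit.

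The persistence to day 8 set the members apart by definition from a larger group with the same early pattern. At or under 0 log2 CPM at day 0 and in both heat-only groups, 64 genes were at 4 or more with TSA at days 2 and 4. At day 8, 2 of the 64 were still at 4 or more, 9 lay between 0 and 4, and 53 were at 0 or less. Conversely, 330 genes with the same low levels elsewhere were at 4 or more with TSA at day 8 but at neither earlier day.

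BnaC06g24550D was the steadier of the members. With TSA its level was 38.9, 40.4 and 21.4 CPM at day 2, 22.2, 28.9 and 15.9 CPM at day 4, and 110.4 and 75.2 CPM at day 8. It was 0.513, 0.539 and 0.262 CPM at day 0 (the last being 1 count, under what that library resolves), 0.745, 0.163 and 0.228 CPM in HS day 2, and 0.882, 0.669 and 0.578 CPM in HS day 4. All 8 TSA libraries lay above all 9 others, as the rule requires of the means, and each of the 17 libraries was on its group's side of the limits.

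The means of BnaC06g24550D at day 2 were 33.6 ± 10.6 CPM in HS+TSA and 0.378 ± 0.319 CPM in HS (SD, n = 3 each), a ratio of 88.7. At day 4 they were 22.3 ± 6.50 CPM in HS+TSA and 0.710 ± 0.156 CPM in HS (SD, n = 3 each), a ratio of 31.5. At day 8 the TSA mean was 92.8 ± 24.9 CPM (SD, n = 2), against 0.438 ± 0.153 CPM at day 0 (SD, n = 3). The low levels rest on few reads: 35 counts in all at day 0, 19 in HS day 2 and 17 in HS day 4, against 3015, 1727 and 4047 with TSA at days 2, 4 and 8. The size of these ratios and of the low means is therefore uncertain, and they describe how the gene was chosen.

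BnaA09g22540D varied more between replicates. With TSA its level was 22.2, 29.3 and 11.2 CPM at day 2, 35.0, 25.7 and 18.0 CPM at day 4, and 81.5 and 14.6 CPM at day 8. It was 1.11 and 0.790 CPM in the deeper day 0 libraries and had no count in day 0 replicate 3, where up to 0.787 CPM could have been missed. Heat-only levels were 0.596, 0.244 and 0.0455 CPM at day 2, the last again 1 count and under the 0.137 CPM of 3 counts there, and 0.882, 0.936 and 0.743 CPM at day 4. The TSA libraries again lay above all others, but day 2 replicate 3 and day 8 replicate 2 were under 4 on the authors' log2 CPM scale, at 3.56 and 3.8, and HS day 4 replicate 2 was above 0, at 0.15.

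The means of BnaA09g22540D at day 2 were 20.9 ± 9.12 CPM in HS+TSA and 0.295 ± 0.279 CPM in HS (SD, n = 3 each), a ratio of 70.8. At day 4 they were 26.2 ± 8.49 CPM in HS+TSA and 0.854 ± 0.0994 CPM in HS (SD, n = 3 each), a ratio of 30.7. At day 8 the TSA mean was 48.1 ± 47.3 CPM (SD, n = 2), against 0.632 ± 0.570 CPM at day 0 (SD, n = 3). For both genes the ratio of HS+TSA to HS was smaller at day 4 than at day 2, and in both the HS mean was higher at day 4. The difference between these ratios was not tested, and their sizes depend on the scaling. With library totals in place of TMM, the log2 fold change of HS day 4 over HS day 2 was 0.95 instead of 1.69 for BnaA09g22540D. For BnaC06g24550D it was 0.31 instead of 1.04. HS+TSA day 2 is labelled with a sequencing run, and HS+TSA day 4 and both HS groups with none. In the day 2 ratios TSA and the run therefore cannot be told apart.

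**Figure D2:**
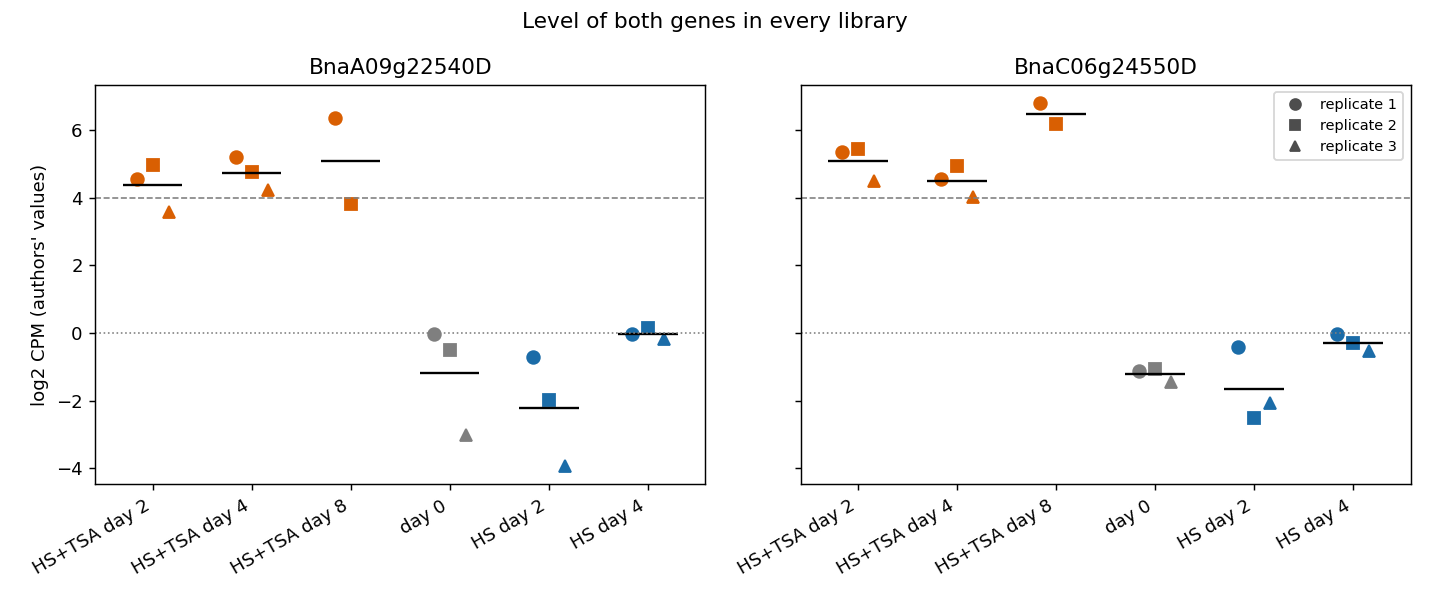
The authors' log2 CPM of both genes in each of the 17 libraries (symbols, by replicate), with group means as black lines and the limits of 4 (dashed) and 0 (dotted). HS+TSA libraries (orange) lie between 3.56 and 6.79 and the day 0 (grey) and HS libraries (blue) at 0.15 or less, with a wide gap between the day 8 libraries of BnaA09g22540D.

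The first test asked whether the genes changed between days 2 and 4 with TSA. Of these groups only day 2 is labelled with a sequencing run, and the TSA concentration of day 4 is open. Neither can be told apart from time here. By the quasi-likelihood test of edgeR, fitted over 64330 genes, 6.4% of all genes were called at an adjusted p under 0.05, and 0 of the 2 members were; at an unadjusted p under 0.05, or by DESeq2 or limma-voom, 0 of the 2 passed as well. BnaC06g24550D had 22.3 CPM at day 4 and 33.6 CPM at day 2, a log2 fold change of -0.59 ± 0.284 (SE) with a 95% interval of -1.2 to 0.01 and an adjusted p of 0.257 (edgeR, Benjamini-Hochberg). BnaA09g22540D had 26.2 CPM at day 4 and 20.9 CPM at day 2, a log2 fold change of 0.32 ± 0.505 (SE) with a 95% interval of -0.76 to 1.4 and an adjusted p of 0.808. The libraries of the 2 days overlapped for both genes, and neither a rise of BnaA09g22540D nor a fall of BnaC06g24550D passed the test. The intervals still hold a rise to 1.4 and a fall to -1.2, so a lack of change is not shown.

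By day 8 BnaC06g24550D rose above both earlier TSA times, and its day 8 libraries did not overlap with those of day 4 or day 2. Its mean was 33.6 CPM at day 2, 22.3 CPM at day 4 and 92.8 CPM at day 8. The log2 fold change of day 8 over day 4 was 2.06 ± 0.313 (SE; 95% interval 1.39 to 2.72), with an adjusted p of 4.27e-05 (edgeR, Benjamini-Hochberg). Over day 2 it was 1.46 ± 0.31 (SE; 95% interval 0.81 to 2.12), with an adjusted p of 0.000814. In the authors' deposited table the same log2 fold changes were 1.99 and 1.33, with false discovery rates of 1.13e-05 and 0.000325. These comparisons share the day 8 libraries, so they do not count as separate evidence.

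Such rises were common. Among all genes tested 23.4% were called higher at day 8 than at day 4 and 24.3% higher than at day 2; among the 7458 genes at 4 or more in all TSA groups the shares were 33.5% and 34.4%, so a call of 1 member in 2 is no result about the members. Day 2 and day 8 differ in TSA concentration as well as in time, and this cannot be told apart. Day 0, HS+TSA day 2 and HS+TSA day 8 are labelled with 1 sequencing run and the other groups with none. For day 8 against day 4 the run therefore cannot be told apart either. The same holds for HS+TSA day 4 against day 2, and for HS+TSA against HS at day 2. The rise over day 2 lies within the named run.

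BnaA09g22540D did not pass the test at day 8. It had 48.1 CPM at day 8 and 26.2 CPM at day 4, a log2 fold change of 0.87 ± 0.555 (SE; 95% interval -0.32 to 2.05) with an adjusted p of 0.192 (edgeR, Benjamini-Hochberg). Against 20.9 CPM at day 2 the log2 fold change was 1.19 ± 0.555 (SE; 95% interval 0.01 to 2.37), with an adjusted p of 0.0791 and an unadjusted p of 0.0489. The direction rested on 1 library: without day 8 replicate 1 the log2 fold changes were -0.84 over day 4 and -0.52 over day 2 (adjusted p 0.222 and 0.448), and without day 8 replicate 2 they were 1.62 and 1.95 (adjusted p 0.0124 and 0.00406). The size also depended on the method: limma-voom gave 0.38 over day 4 and 0.72 over day 2 (adjusted p 0.554 and 0.258), and a replicate block 0.34 and 0.65 (edgeR adjusted p 0.565 and 0.264). In the authors' deposited table the log2 fold changes were 0.27 and 0.59, with false discovery rates of 0.689 and 0.373. With a single day 8 library left, the fits that leave out the other assume that it varies like the libraries of the other groups.

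**Figure D3:**
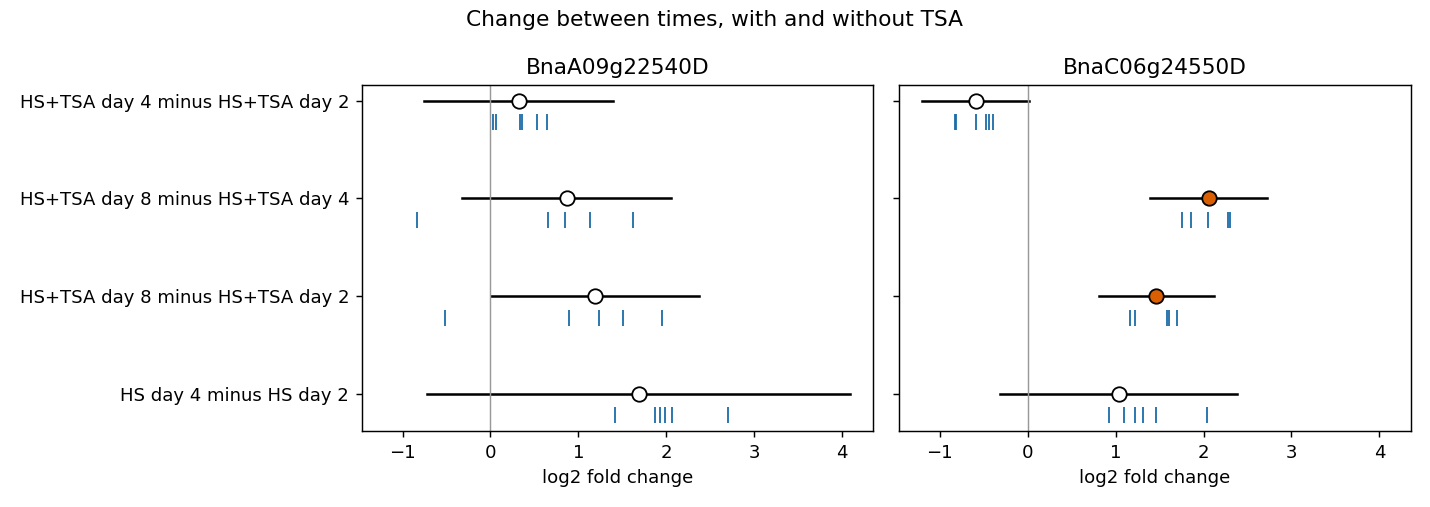
Log2 fold changes of both genes between times with 95% intervals (lines); filled circles passed an adjusted p of 0.05 and open circles did not, and blue ticks are the values with each library left out in turn. BnaC06g24550D at day 8 keeps values between 1.16 and 2.3, whereas those of BnaA09g22540D at day 8 run from -0.84 to 1.95.

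The gap between the day 8 libraries of BnaA09g22540D was wider than that of nearly all well expressed genes. On the authors' log2 CPM scale replicate 1 exceeded replicate 2 by 2.55, and a difference at least as large in either direction was found for 19 of the 7458 genes at 4 or more in all TSA groups, or 0.255%. For BnaC06g24550D the difference was 0.63, which 19.3% of these genes reached. The middle 95% of the 7458 genes lay between -1.2 and 0.88, around a median of -0.19. The median was 0.4 among the 41 genes, the members included, that meet the rule when the TSA limit is lowered to 3.

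**Figure D4:**
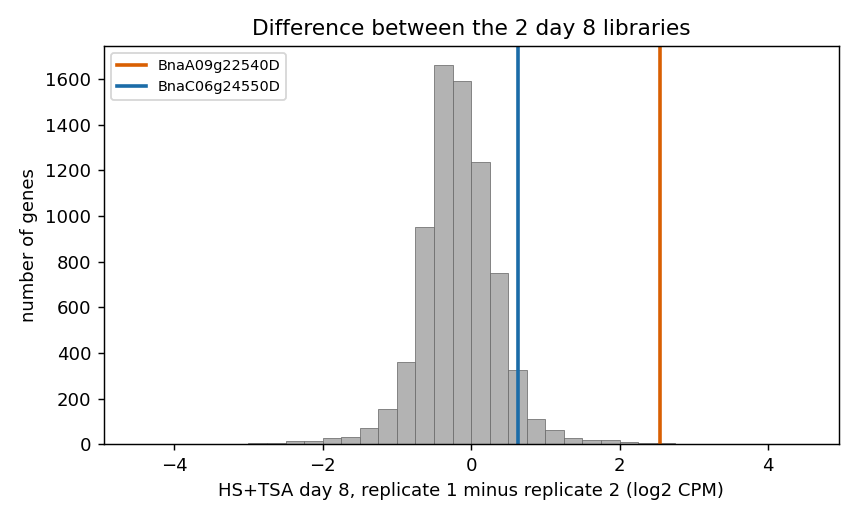
Number of genes (bars) by the difference between day 8 replicates 1 and 2 in log2 CPM, for the 7458 genes at 4 or more in all HS+TSA groups, with both members as vertical lines. BnaA09g22540D at 2.55 lies at the right tail and BnaC06g24550D at 0.63 within the main body.

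At the earlier TSA times both members shared a low library, replicate 3. At day 2 replicate 2 exceeded replicate 3 by 1.4 log2 CPM for BnaA09g22540D and by 0.94 for BnaC06g24550D, differences that 0.657% and 2.16% of the 7458 genes reached. At day 4 the same differences were 0.54 and 0.89, reached by 5.03% and 1.11%. Across the 7458 genes the median differences were -0.02 at day 2 and -0.06 at day 4. For the 41 genes the median difference was 0.64 at day 2 and 0.22 at day 4. Replicate 3 was thus low for the members and the 41 genes but not for well expressed genes at large. Over all genes tested, its deviations from the group means at days 4 and 2 correlated at 0.498 (Pearson's r, across genes, given without a p), against 0.276 for replicate 1 and 0.079 for replicate 2; its part in the levels of the members was not tested.

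Without TSA both members had higher means at day 4 than at day 2, but neither passed the edgeR test. Among all genes 45.4% were called between these groups, 22.2% higher and 23.2% lower at day 4, and 0 of the 2 members. The split over all genes moved with the scaling, with 14267 higher and 14918 lower as fitted, 19220 and 9514 with RLE factors, and 7670 and 28040 with library totals. Of the members, limma-voom called 0, DESeq2 called BnaA09g22540D, and at an unadjusted p under 0.05 edgeR had 0. BnaA09g22540D averaged 0.854 CPM in HS day 4 and 0.295 CPM in HS day 2, with libraries that did not overlap, and had a log2 fold change of 1.69 ± 1.13 (SE; 95% interval -0.72 to 4.09; edgeR adjusted p 0.243). BnaC06g24550D averaged 0.710 CPM in HS day 4 and 0.378 CPM in HS day 2, with overlapping libraries, and had a log2 fold change of 1.04 ± 0.635 (SE; 95% interval -0.31 to 2.38; edgeR adjusted p 0.198). Scaling by library totals lowered the log2 fold changes to 0.95 and 0.31. No library of these groups held more than 10 counts of either gene, so at this depth the intervals still reach 4.09 and 2.38 log2 units. The rule caps both genes in both groups, and in a fit of the 2 heat-only groups alone neither passed the filter. These values therefore describe the members and do not decide whether they changed without TSA.

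The order of the group means from high to low was the same at the ends for both genes: HS+TSA day 8 highest, HS day 2 lowest. For BnaA09g22540D, HS+TSA days 8, 4 and 2 followed each other with overlapping libraries, then HS day 4, day 0 and HS day 2, with day 0 overlapping both heat-only groups. For BnaC06g24550D, HS+TSA day 8 stood clear of days 2 and 4, which overlapped, and below them came HS day 4, day 0 and HS day 2, with HS day 2 overlapping both HS day 4 and day 0.

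Across the 17 libraries the log2 CPM of the members correlated at 0.958 (Pearson's r, a description given without a p, since the libraries share depth and the TSA split that chose the genes). For BnaA09g22540D, 992 of 68490 other genes had an r of at least 0.9, and the most alike were BnaC03g29960D and BnaC07g39280D (0.98 each). For BnaC06g24550D there were 1706 such genes, led by BnaC07g26500D and BnaC06g02160D (0.989 each). These leaders, picked after their values were seen, need not be silent without TSA: BnaC07g26500D had means of 7.93, 7.57 and 9.64 log2 CPM with TSA at days 2, 4 and 8, against 3.55 at day 0, 3.65 in HS day 2 and 4.19 in HS day 4.

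No gene but the members meets the rule, so the levels of genes with neighbouring IDs are given as a description. Of the 12 IDs around BnaA09g22540D, 6 on each side, 6 had a deposited log2 CPM value. The nearest, BnaA09g22530D, was well expressed everywhere, with means of 5.53, 5.58 and 6.12 log2 CPM with TSA at days 2, 4 and 8, against 6.15 at day 0, 5.42 in HS day 2 and 4.12 in HS day 4. BnaA09g22580D, on the other side, stayed at -3.03 log2 CPM or less in all 6 groups. By the authors' deposited table, of these 6 genes 1 was higher and 1 lower with TSA than in HS at day 2 (false discovery rate under 0.05), where 37.6% and 28.9% of all genes were. At day 4, 3 of the 6 were higher and 1 lower, where 35.5% and 27.9% of all genes were. The most responsive, BnaA09g22480D, 6 places before, had log2 fold changes of HS+TSA over HS of 3.68 at day 2 and 2.12 at day 4 in the authors' deposited table (false discovery rates 2.21e-06 and 5e-05). Its means were 2.87, 3.99 and -0.01 log2 CPM with TSA at days 2, 4 and 8, against -1.67 at day 0, -0.75 in HS day 2 and 1.77 in HS day 4.

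Around BnaC06g24550D, 8 of 12 neighbouring IDs had a value. The next ID, BnaC06g24560D, did not exceed -2.09 log2 CPM in any group. BnaC06g24530D, 2 places before, had means of 1.65, 2.0 and 2.07 log2 CPM with TSA at days 2, 4 and 8, against -1.14 at day 0, -1.14 in HS day 2 and 0.48 in HS day 4. Its log2 fold changes of HS+TSA over HS in the authors' deposited table were 2.7 at day 2 and 1.61 at day 4, with false discovery rates of 9.43e-05 and 0.00493. BnaC06g24570D, 2 places after, was at 3.39 and 3.98 log2 CPM with TSA at days 2 and 4 but at -0.99 at day 8, against -2.1 at day 0, 2.09 in HS day 2 and 2.75 in HS day 4. Its log2 fold changes of HS+TSA over HS in the authors' deposited table were 1.3 at day 2 and 1.23 at day 4 (false discovery rates 0.000292 and 0.00142). Of the 8 neighbours, 4 were higher and 0 lower by the authors' deposited table with TSA at day 2, and 3 higher and 0 lower at day 4; over all genes 37.6% were higher and 28.9% lower at day 2, and 35.5% and 27.9% at day 4. With 8 genes these counts are given as a description.

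**Figure D5:**
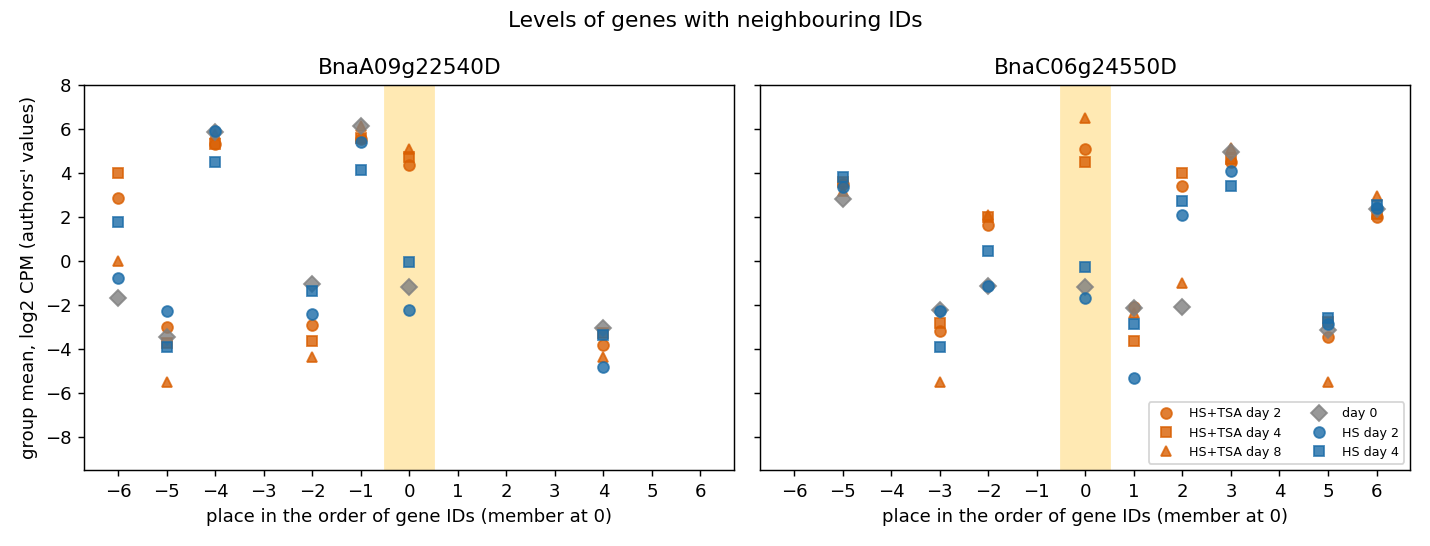
Group means in the authors' log2 CPM of the members (shaded, place 0) and of genes with neighbouring IDs up to 6 places away; IDs with no deposited value have no symbols. Of the genes drawn, the members alone have all HS+TSA means (orange) at 4 or more and all other means at 0 or less, which the rule fixed in advance.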

How the data were processed

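Per the file headers, the files deposited by the authors hold raw counts of each gene in 17 libraries, log2 CPM values of the genes they kept, and log2 fold changes with false discovery rates (p-values adjusted for multiple tests) for 10 comparisons. Limma is named in the submitters' processing notes; the aligner, the counter and the genome build are each not given in the sources used here. Columns were matched to samples by title. Members were found from the deposited log2 CPM. They and all lists were chosen with earlier results of these data known. Counts were tested with edgeR 4.0.16 in R 4.3.3 (TMM, filterByExpr, robust quasi-likelihood, 1 coefficient per group, two-sided, Benjamini-Hochberg over 64330 genes); both members passed the filter. An SE is the absolute log2 fold change over the square root of F. The test was checked on simulated data. Alternatives used DESeq2 1.42.0, limma 3.58.1, other scalings and filters, a replicate block and leaving out each library. Named genes are the members, the genes nearest the limits, and like or neighbouring genes picked later. The series calls the replicates biological. Same-numbered libraries of day 0, HS+TSA day 2 and HS+TSA day 8 share a sequencing lane in the labels; their deviations correlated at 0.035 and -0.123 between days 8 and 2, and at 0.276, 0.079 and 0.498 between days 4 and 2, for which the labels name no shared lane.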

Additional observations from a re-analysis of the deposited data

How the results depend on the processing

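The rise of BnaC06g24550D at day 8 passed an adjusted p of 0.05 under all planned scalings, filters and tools. It also passed with the replicate block and in fits of only the 2 groups compared. Over these settings its log2 fold changes were 1.82 to 2.24 over day 4 and 1.25 to 1.48 over day 2. With single libraries left out they were 1.76 to 2.3 and 1.16 to 1.7. BnaA09g22540D at day 8 kept its direction under the same settings. Its log2 fold changes were 0.34 (replicate block) to 1.08 (library totals) over day 4. Over day 2 they were 0.65 (replicate block) to 1.24 (DESeq2). With single libraries left out they ran from -0.84 to 1.62 over day 4 and from -0.52 to 1.95 over day 2. Between days 4 and 2 with TSA, leaving out libraries gave 0.03 to 0.64 for BnaA09g22540D and -0.83 to -0.4 for BnaC06g24550D. In heat-only cultures, day 4 over day 2, DESeq2 gave BnaA09g22540D a log2 fold change of 1.96 (adjusted p 0.0355; range over the other settings 0.115 to 0.506), the scalings, filters and tools gave 0.95 to 2.08 for it and 0.31 to 1.37 for BnaC06g24550D, lowest with library totals in both, and leaving out libraries gave 1.42 to 2.7 for it and 0.92 to 2.04 for BnaC06g24550D, which passed without HS day 2 replicate 1 (2.04, adjusted p 0.0202); the cause was not tested. In the fit of the 2 heat-only groups alone neither gene passed the filter.

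The replicate block changed no call of either member: over day 4 it gave 0.34 for BnaA09g22540D (adjusted p 0.565), and over day 2 it gave 1.25 for BnaC06g24550D and 0.65 for BnaA09g22540D at day 8 (adjusted p 0.000472 and 0.264), and within the named run, an alternative chosen after seeing the data, 1.2 and 0.48 (adjusted p 0.0013 and 0.574). The number of members was 41 with a TSA minimum of 3, 20 with a maximum of 1 elsewhere, 0 with a minimum of 5 or a maximum of -1, 1 where every replicate had to meet the limits, and 1 to 3 with single libraries left out. BnaC06g24550D remained a member without any single library; BnaA09g22540D did not without HS+TSA day 8 replicate 1 or HS day 4 replicate 3, or when every replicate counted. Over all genes, 4114 were called between TSA days 4 and 2, and 1342 to 3250 with single libraries left out (1342 without HS+TSA day 2 replicate 1, 2361 without HS+TSA day 4 replicate 1, 2097 without HS+TSA day 4 replicate 2). With library totals in place of TMM the all-gene median of the log2 fold change was -0.7 instead of 0.00 for heat-only day 4 over day 2 and -0.17 instead of 0.04 for TSA day 4 over day 2, and the share of calls that were higher was 21.5% instead of 48.9% and 41.1% instead of 63.1%. For heat-only day 4 over day 2 other settings raised that share, to 66.9% with RLE factors (median 0.28), 67.4% with DESeq2 (median 0.31) and 59.4% with no filter, and for TSA day 4 over day 2 upper-quartile factors gave 48.0% (median -0.07). With few counts, heat-only and day 0 levels are limited by depth.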

Other observations

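The 41 genes that meet the rule with a TSA minimum of 3 log2 CPM, the members among them, give a wider view of the same pattern; the rule chose them by their levels, so counts are descriptions. By code 21 lay in the A and 20 in the C subgenome (51.2% A, against 47.2% of all 68491 genes). Their highest TSA mean fell at day 8 for 20 genes, at day 4 for 18 and at day 2 for 3. Of the 41, 17 were called higher and 1 lower at day 8 than at day 2 (edgeR, adjusted p under 0.05), with a median log2 fold change of 0.68, against 24.3% higher, 33.2% lower and a median of -0.17 over all genes tested, and 34.4% higher, 15.2% lower and a median of 0.21 over the 7458 genes at 4 or more in all TSA groups. At day 8 over day 4, 13 were called higher (31.7%) and 3 lower, with a median of 0.27, against 33.5% higher, 18.7% lower and a median of 0.17 over the 7458 genes, so the share of higher calls was near that of well expressed genes. The rule holds the 41 at 3 log2 CPM or more at each TSA time, so a gene near that limit could rise freely but fall little. The few calls of lower at day 8 are therefore no result about the list. All 41 were at 0 log2 CPM or less in every group without TSA. The highest of these low means was that of HS day 4 for 31 genes, of day 0 for 10 and of HS day 2 for 0. At such levels depth and scaling may set the order, which was not tested. In HS day 4 libraries 3 counts stood for 0.2478 to 0.5292 CPM, and in HS day 2 libraries for 0.122 to 0.2235 CPM. In heat-only cultures 16 of the 41 were called higher and 0 lower at day 4 than at day 2, with a median log2 fold change of 1.49, against 22.2% higher, 23.2% lower and a median of 0.00 over all genes, and 17.3% higher, 51.7% lower and a median of -0.49 over the 7458 genes. The rule holds the 41 at 0 log2 CPM or less in both groups, so a call of lower was harder to reach. The genes compared were not held to such levels. The shares therefore cannot be set against each other, and no rise of the list without TSA is read from them. The split over all genes moved with the scaling, and the 41 were counted with TMM alone.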
